A study of Mus musculus with 6 samples.

Results

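The laminin chain genes Lama1, Lama2, Lama3, Lama4, Lama5, Lamb1, Lamb2, Lamb3 and Lamc1 were followed in primary renal tubular epithelial cells (RTECs). They were taken by gene symbol from the 46517 genes in the count files, and all 9 had enough reads to be among the 15862 genes tested. Lamc3, a further γ chain gene, lies outside this set of 9 and is given as context. RNA was sequenced from 3 cultures labelled CTL and 3 given TGF-β1 at 50 ng/ml over 24 h, a cytokine that drives fibrosis, after 24 h in medium free of serum. All 6 were grown from kidneys of wild-type FvB mice, 4 to 6 weeks old by the labels, and expanded with serum, EGF and ITS supplement. The study's methods give slightly younger mice, all male. What the CTL cultures received in place of TGF-β1 is not given in the sources used here. Nothing in the labels says whether the cultures came from separate animals, so p-values measure the spread between these cultures only.

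Laminins are the first scaffold of a basement membrane, the sheet of matrix on which tubule cells rest. Each molecule is a trimer of an α, a β and a γ chain, each from its own gene. The β and γ chains pair inside the cell, an α chain must join before the trimer is secreted, and the α chain carries most of the sites that bind integrins and dystroglycan. The adult tubule basement membrane is rich in the α5 chain joined to β1 and γ1, whereas α3 and β3 belong to laminins that anchor hemidesmosomes of stratified epithelia. Chains α2 and α4 are typical of muscle, mesenchyme and vessels, and β2 is best known from the glomerular basement membrane.

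Tubule genes were present in the cultures, with limits. Pax8, a kidney epithelial transcription factor, had 206 ± 12.2 CPM in CTL (read counts scaled to library size by TMM, SD, n = 3), and the epithelial keratins Krt8 and Krt18 were detected in each culture. Proximal tubule markers (9 genes) summed to 104 to 114 CPM in CTL and 43.2 to 61.7 CPM after TGF-β1, and Slc5a2 was at or under 3 reads in each library. Lrp2 held 69.6 ± 6.19 CPM of this sum in CTL, while Slc34a1 stayed at or under 0.344 CPM. The loop and distal tubule list (7 genes) summed to at most 3.75 CPM in any culture, the collecting duct list (8 genes) to at most 57.5 CPM, the endothelial list (9 genes) to at most 9.66 CPM and the leukocyte list (8 genes) to at most 21.4 CPM. Hsd11b2 held 56.8 of the 57.5 CPM of the collecting duct list in TGF-β1 replicate 3, while Aqp2 stayed at or under 0.172 CPM. The podocyte and parietal cell list (6 genes) summed to 695 to 858 CPM in CTL and 492 to 535 CPM after TGF-β1. Synpo held 458 ± 83.9 CPM of this sum in CTL, while the slit diaphragm gene Nphs1 stayed at or under 0.182 CPM. Fibroblast and pericyte markers (12 genes) summed to 1198 to 2766 CPM in CTL and 1195 to 3558 CPM after TGF-β1. In bulk RNA, fewer cells of a type and less RNA per cell cannot be told apart.

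Both replicate 2 cultures stood apart from the other 4. Y-linked transcripts (Ddx3y, Eif2s3y, Kdm5d and Uty together) had 151 CPM in CTL replicate 2 and 142 CPM in TGF-β1 replicate 2, against 0.0610 to 0.172 CPM in the others, although the methods name male mice for these cultures. Replicate 2 also had the highest fibroblast and pericyte sum and the lowest tubule epithelium sum of each group. Not all genes of these lists followed the sums. In CTL replicates 1, 2 and 3, Pax8 had 212, 215 and 192 CPM, Cdh16 302, 251 and 232 and Pax2 104, 100 and 84.2. The other genes of the tubule epithelium list were lowest in CTL replicate 2. Col1a1 was highest in replicate 2 of both groups (1465 and 1835 CPM), whereas Pdgfra was lowest there (0.881 and 0.654 CPM). Cultures that share a number across the groups deviated together, so results were read without and with the replicate number as a block in the model.

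The results turn on genes at chr10:38965515-39110188 (Lama4), chr2:180176373-180225859 (Lama5), chr12:31265234-31329644 (Lamb1), chr9:108479736-108490530 (Lamb2), chr1:193207699-193343878 (Lamb3) and chr1:153218922-153332786 (Lamc1), in GRCm38. For 5 of the 9 chains a promoter window was found in RefSeq (GRCm38.p6), and 3 are shown: those of the abundant chains Lama5 and Lamb1, which moved within same-numbered pairs, and of Lamb3, which followed the replicate number. Each window is the 250 bases before the first start that RefSeq lists. That start is the outer end of the gene span for Lama5, but it lies 59 bases inside the span for Lamb1, 126 for Lamb2 and 94295 for Lamb3, whose GENCODE spans begin farther upstream. Each run is the part of its window ahead of the first GENCODE exon base within that window, 5′ to 3′ along the gene. The run of Lamb3 therefore lies inside the gene span, downstream of the first GENCODE exon of the gene. Capitals mark the letters CAGAC or, on the other strand, GTCTG, the core of a SMAD box. SMAD proteins are the transcription factors that TGF-β1 activates. The runs are chr2:180225860-180226109 (minus strand) for Lama5, chr12:31265043-31265233 (plus strand) for Lamb1 and chr1:193301744-193301992 (plus strand) for Lamb3.
Lama5: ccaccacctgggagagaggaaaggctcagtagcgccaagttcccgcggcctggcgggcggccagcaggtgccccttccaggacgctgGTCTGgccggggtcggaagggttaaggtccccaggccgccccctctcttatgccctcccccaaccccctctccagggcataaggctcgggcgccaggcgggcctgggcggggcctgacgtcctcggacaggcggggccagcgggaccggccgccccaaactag
Lamb1: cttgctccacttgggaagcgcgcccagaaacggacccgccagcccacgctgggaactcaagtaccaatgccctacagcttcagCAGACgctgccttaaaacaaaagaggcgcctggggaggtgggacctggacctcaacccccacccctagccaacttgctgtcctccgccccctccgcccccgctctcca
Lamb3: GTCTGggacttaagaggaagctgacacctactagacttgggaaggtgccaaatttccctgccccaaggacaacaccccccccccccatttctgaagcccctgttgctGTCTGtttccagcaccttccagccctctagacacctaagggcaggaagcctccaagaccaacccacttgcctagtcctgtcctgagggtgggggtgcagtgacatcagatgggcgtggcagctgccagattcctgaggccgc
In the 250-base windows, the SMAD box core was found 1 time in the window of Lama5, 1 time in that of Lamb1 and 2 times in those of Lamb2 and Lamb3, and 42.2% of the 32851 RefSeq windows of this length hold it. For Lamb2 both matches lie inside the gene span, and the part of its window ahead of the span holds 0. The AP-1 motif TGANTCA was found in 0 of these 4 windows and in 6.75% of all. The RBPJ core TGGGAA, at which Notch acts, was found 2 times for Lamb1, 1 time for Lamb3 and 0 times for Lama5 and Lamb2, and it is in 21.6% of all windows. The GC box GGGCGG was found 4 times for Lama5, 2 times for Lamb1 and 0 times for Lamb2 and Lamb3, and it is in 32.7% of all windows. Motifs were searched on both strands, and no match of one shared bases with a match of another. The window of Lama2, not shown, held 1 SMAD box core, 1 RBPJ core, 0 AP-1 motifs and 0 GC boxes. Its start lies 2816 bases inside the gene span. All of these are matches of letters and not measured binding sites.

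Lamb1 was the most abundant laminin transcript per length. Lamb1, the β chain of most trimers, had 118 ± 7.88 and 133 ± 8.11 CPM per kb of exon (means ± SD over 3 CTL and 3 TGF-β1 cultures, in that order here and for the chains that follow). Lama5 followed with 52.5 ± 2.77 and 39.9 ± 7.66 CPM per kb, and Lamc1, the γ chain shared by most trimers, with 29.5 ± 3.52 and 25.3 ± 0.691 CPM per kb. Lamb1 lay above Lama5 and Lama5 above Lamc1 in each culture. The next means were those of Lamb2 at 23.2 ± 2.59 and 20.2 ± 0.910 CPM per kb, Lamb3 at 19.3 ± 11.1 and 18.5 ± 9.65 CPM per kb and Lama3 at 6.90 ± 3.70 and 7.12 ± 4.70 CPM per kb. The order of Lamb3 against Lamb2 and Lamc1 is not resolved, since Lamb3 lay above both in replicate 3 of each group and below both in the other cultures. Lama3 lay below Lamb2 and Lamb3 in each culture. These levels depend on the length used. With the longest annotated transcript in place of all exons, the means of Lamb1 were 203 and 228 CPM per kb, the highest still, and those of Lamb3 (26.3 and 25.1) came above those of Lamb2 (25.1 and 21.8).
Lama1, an α chain of early development that kidney tubules retain, had 2.05 ± 0.299 and 1.90 ± 0.190 CPM per kb. Lama4 lay at 0.189 ± 0.0270 and 0.0653 ± 0.0307 CPM per kb, or at means of 0.378 and 0.130 CPM per kb of the longest transcript. Lama2, the muscle α chain, had 7 to 18 reads per library, and Lamc3 had 5 to 13.

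Within its class, Lama5 made up 84.6%, 90.5% and 81.1% of α chain transcripts (by CPM per kb) in CTL replicates 1, 2 and 3, and 82.5%, 87.6% and 76.7% after TGF-β1. Lama3 took most of the rest, from 5.35% to 15.9% in CTL and from 6.67% to 20.2% in TGF-β1 cultures. Lama4 and Lama2 together were under 1% of the α class in each culture. Lamb1 made up 70.3% to 76.3% of β chain transcripts in CTL and 74.5% to 80.9% after TGF-β1. Lamb3 was 11.6%, 5.73% and 17.7% of β chain transcripts in CTL replicates 1, 2 and 3, and 10.8%, 5.55% and 15.1% after TGF-β1, lowest in replicate 2 of both groups.

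**Figure D1:**
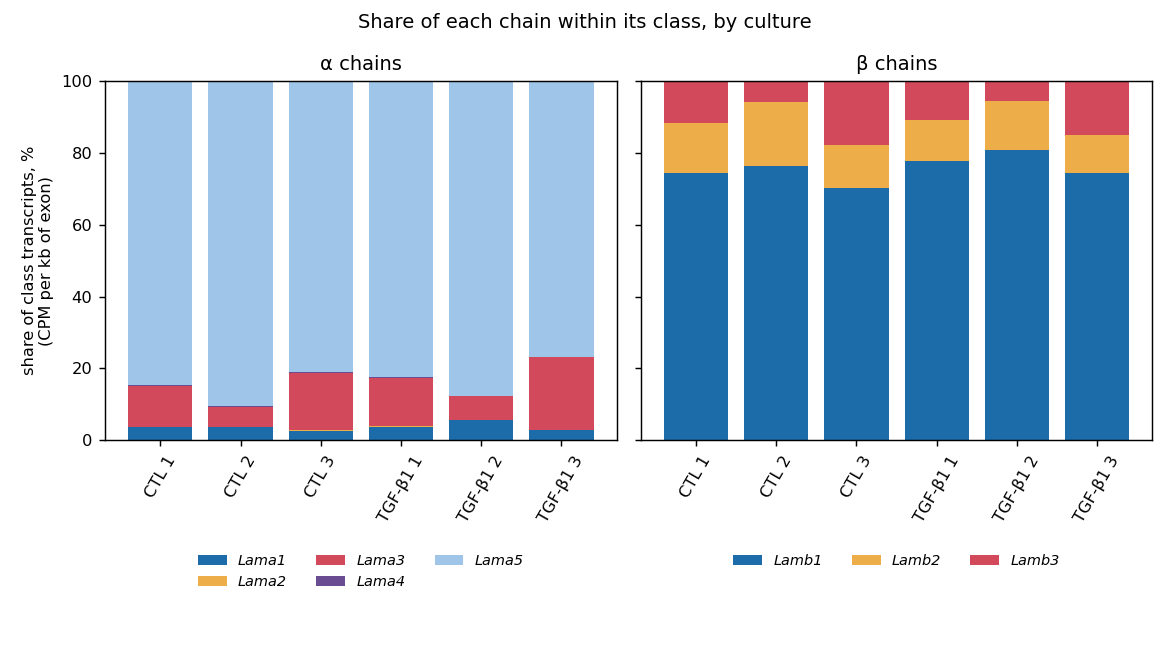
Share of each chain among the α or β chain transcripts of a culture, in percent of the summed CPM per kb of exon; each bar is 1 culture and each colour 1 chain. Lama5 and Lamb1 led their classes in all 6 cultures, and the share of Lamb3 ran from 5.55% in TGF-β1 replicate 2 to 17.7% in CTL replicate 3.

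TGF-β1 treatment was compared with CTL chain by chain. With condition alone in the model, 1 of 9 chains fell (Lama4) and 0 rose at an adjusted p-value under 0.05 (edgeR's quasi-likelihood test, Benjamini-Hochberg over all tested genes), beside 6.69% of all tested genes that fell and 5.0% that rose. At an unadjusted p-value under 0.05, 3 of 9 chains were lower (Lama5 and Lamc1 beside Lama4) and 0 higher, with 15.4% and 13.2% of all tested genes. DESeq2 called 1 chain lower and 0 higher, with 9.59% and 7.57% of all tested genes. With the replicate number as a block, 4 of 9 chains fell (Lama4, Lama5, Lamb2 and Lamc1) and 1 rose (Lamb1), beside 19.1% and 15.1% of all tested genes. The median log2 fold change of the 9 chains was -0.20 with condition alone, against -0.0028 for all tested genes. Without both replicate 2 cultures, 2 of 9 chains fell and 0 rose with condition alone (Lama4 and Lama5, beside 8.09% and 6.79% of all genes). With the block added, 3 fell and 1 rose, beside 17.0% and 14.3% of all genes, and Lamc1 missed the threshold (log2 fold change -0.15, adjusted p = 0.0660, edgeR).

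Lama4 codes for the α4 chain, found mainly around vessels and in mesenchyme, which lacks the short arm that most α chains carry. Its level was 2.65, 2.03 and 2.17 CPM in CTL replicates 1, 2 and 3, and 0.994, 0.360 and 1.01 CPM after TGF-β1. Each TGF-β1 culture was under each CTL culture, and TGF-β1 replicate 2 was the lowest of all. Lama4 and Lama5 were the 2 of 9 chains with such a fall without overlap, beside 18.0% of all tested genes, and 0 of 9 were higher without overlap, beside 17.2%. The fall of Lama4 was 2.88-fold, with a log2 fold change of -1.53 (SE 0.37, adjusted p = 0.0476, edgeR), and with the replicate block it was -1.55 (SE 0.25, adjusted p = 0.00239, edgeR). These levels rest on 87, 67 and 63 reads in the CTL libraries and 31, 11 and 34 in the TGF-β1 libraries. The call with condition alone was lost when any single culture other than TGF-β1 replicate 2 was left out (adjusted p = 0.0781 to 0.175 in those 5 fits, and 0.0351 without TGF-β1 replicate 2, edgeR). Without both replicate 2 cultures the log2 fold change was -1.27 (adjusted p = 0.0189, edgeR, condition alone), while without both replicate 1 or both replicate 3 cultures it was -1.60 and -1.78 (adjusted p = 0.385 and 0.150, edgeR). The endothelial list summed to 4.58 to 9.66 CPM in CTL and 5.22 to 9.49 CPM after TGF-β1, and the part of other cell types in the Lama4 level was not tested.
The genes whose profile over the 6 cultures lay nearest to that of Lama4, among the 10911 tested genes that averaged 5 CPM or more and had reads in every culture, were Pianp and Spon1. Their root-mean-square distance from Lama4 in centred log2 CPM was 0.16 and 0.24. Pianp, which codes for a membrane protein known from neural tissue, averaged 12.1 CPM in CTL and 4.40 CPM after TGF-β1, and Spon1, which codes for the matrix protein spondin 1, averaged 10.98 and 3.49 CPM.

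Lama5, the α chain of the mature tubule basement membrane, had 630.3, 567 and 597 CPM in CTL replicates 1, 2 and 3, and 502, 354 and 508 CPM after TGF-β1. The groups did not overlap, and TGF-β1 replicate 2 was again the lowest culture. The log2 fold change was -0.40 (SE 0.15, adjusted p = 0.137, edgeR) with condition alone and -0.41 (SE 0.085, adjusted p = 0.00920, edgeR) with the replicate block. Pair by pair, the log2 fold change was -0.33, -0.68 and -0.23. Without both replicate 2 cultures the log2 fold change was -0.28, past the threshold without the block (adjusted p = 0.0334, edgeR) and with it (adjusted p = 0.00250, edgeR).

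Lamc1 had 247, 272 and 214 CPM in CTL and 206, 216 and 207 CPM after TGF-β1. The TGF-β1 cultures lay closer together than the CTL cultures, and TGF-β1 replicate 2 was above the lowest CTL culture. The log2 fold change was -0.22 (SE 0.091, adjusted p = 0.175, edgeR), and -0.21 (SE 0.059, adjusted p = 0.0259, edgeR) with the replicate block.

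Of the β chains, Lamb1 had 1232, 1084 and 1201 CPM in CTL and 1371, 1224 and 1354 CPM after TGF-β1. TGF-β1 replicate 2 lay below CTL replicate 1, so the groups overlapped, but each TGF-β1 culture was above the CTL culture of its own number, by 0.15, 0.17 and 0.17 on the log2 scale. The log2 fold change was 0.17 (SE 0.081, adjusted p = 0.237, edgeR), and 0.17 (SE 0.049, adjusted p = 0.0314, edgeR) with the replicate block, a rise of 12.3%.
Lamb2, the β chain of glomerular and neuromuscular laminins, went the other way. It had 141, 157 and 125 CPM in CTL and 125, 126 and 116 CPM after TGF-β1, with TGF-β1 replicates 1 and 2 close to the lowest CTL culture. The log2 fold change was -0.20 (SE 0.088, adjusted p = 0.192, edgeR), and -0.20 (SE 0.050, adjusted p = 0.0181, edgeR) with the replicate block.
Within libraries, the log2 ratio of Lamb1 to Lamb2 per kb was 2.42, 2.08 and 2.55 in CTL and 2.75, 2.57 and 2.84 after TGF-β1. Each TGF-β1 culture was above each CTL culture in this ratio (two-sided exact permutation test, p = 0.1, and no smaller p is possible with 3 against 3; 0.2 after adjustment over 4 ratios). The log2 ratio of Lama4 to Lama5 per kb was -7.98, -8.21 and -8.19 in CTL and -9.06, -10.02 and -9.06 after TGF-β1, a mean difference of -1.26 (same exact test, p = 0.1; 0.2 after adjustment).

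**Figure D2:**
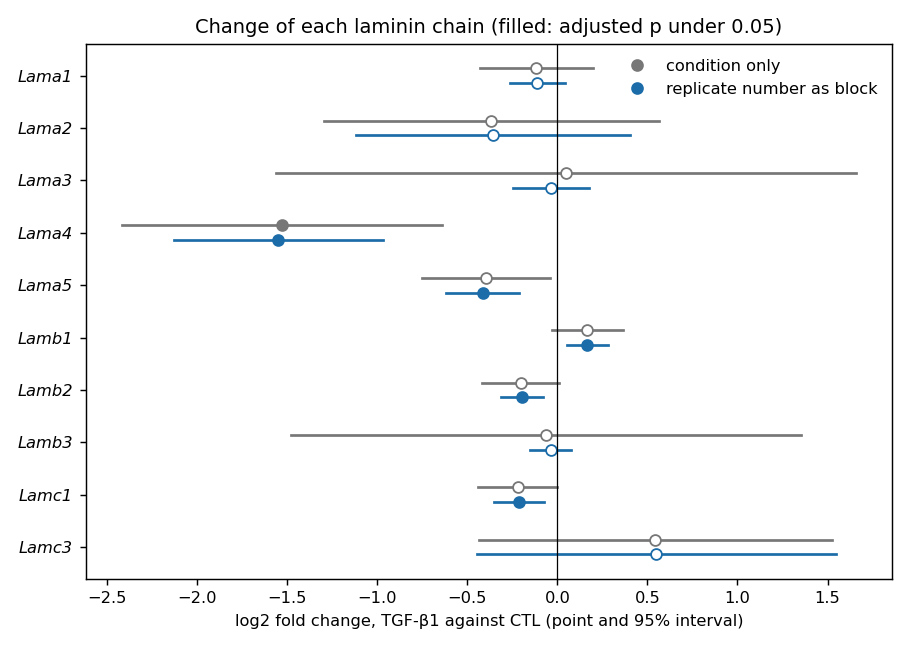
Log2 fold change of each laminin chain with TGF-β1 against CTL (points, horizontal axis) and its 95% interval (lines), from the model with condition alone and from the model with the replicate number as a block; filled points have an adjusted p-value under 0.05. With condition alone the filled point is Lama4, with the block Lama4, Lama5, Lamb1, Lamb2 and Lamc1 are filled, and the intervals of Lama3 and Lamb3 shrink most.

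Lama1 had 22.7, 20.0 and 16.9 CPM in CTL and 19.8, 19.0 and 16.3 CPM after TGF-β1, with overlapping groups. Its log2 fold change was -0.12 (95% interval -0.43 to 0.20, adjusted p = 0.614, edgeR), and with the replicate block the interval was -0.26 to 0.040. Lama2 had 10, 18 and 12 reads in CTL and 10, 14 and 7 after TGF-β1, and the 95% interval of its log2 fold change ran from -1.30 to 0.56. Lamc3, a γ chain best known from brain, had 5, 8 and 10 reads in CTL and 13, 13 and 8 after TGF-β1, with an interval of -0.44 to 1.53.

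**Figure D3:**
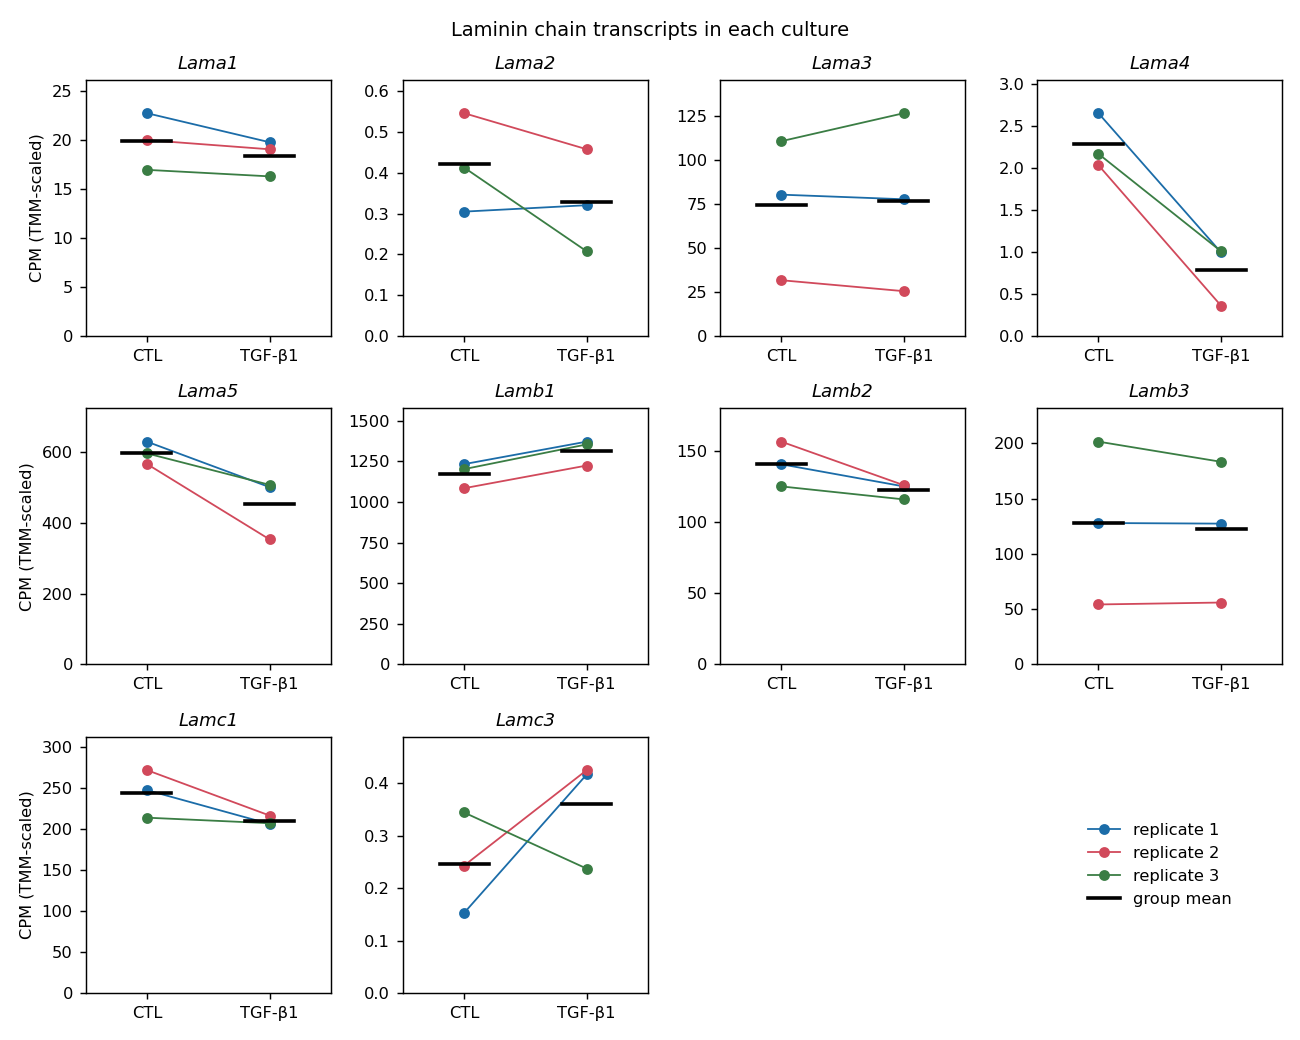
Level of each laminin chain in each culture, in TMM-scaled CPM, with lines joining the CTL and TGF-β1 cultures of the same replicate number and bars at the group means. Lama4 and Lama5 show 3 falling lines and groups apart, Lamb1 shows 3 rising lines, and Lama3 and Lamb3 show 3 separate lines, with replicate 3 highest and replicate 2 lowest.

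Lama3 and Lamb3, which code for chains of hemidesmosome laminin, differed more between replicate numbers than between conditions. Lama3 had 80.2, 31.6 and 111 CPM in CTL replicates 1, 2 and 3, and 77.6, 25.4 and 126 CPM after TGF-β1. Lamb3 had 128, 54.3 and 202 CPM in CTL and 127, 56.0 and 183 CPM after TGF-β1. In both groups replicate 3 was highest and replicate 2 lowest for both transcripts, and the groups overlapped. The mean of replicates 1 and 3 exceeded replicate 2 by 3.01-fold for Lama3 and 3.04-fold for Lamb3 in CTL, and by 4.01-fold and 2.77-fold after TGF-β1. The within-group SD of Lama3 was 1.06 in log2 CPM, larger than that of 99.8% of tested genes, and that of Lamb3 (0.91) was larger than in 99.5%. The median over all tested genes was 0.13, and the value for Lamb1 was 0.094.

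For these chains the replicate block narrowed the interval of the treatment effect. With condition alone the 95% intervals of the log2 fold change were -1.56 to 1.66 for Lama3 and -1.48 to 1.35 for Lamb3. With the block they were -0.25 to 0.18 and -0.15 to 0.077, with adjusted p-values of 0.800 and 0.610 (edgeR). In fold terms the blocked interval of Lamb3 ran from 0.901 to 1.05. The log2 fold change of Lama3 was 0.047 without the block, -0.035 with it and -0.019 when scaled by library size only, so its direction was not fixed. Pair by pair, the log2 fold change was -0.048, -0.32 and 0.19 for Lama3 and -0.0065, 0.046 and -0.14 for Lamb3.
The log2 ratio of Lamb3 to Lama3 per kb lay between 1.24 and 1.84 over the 6 cultures. The log2 ratios per kb of Lama3 to Lama5 and of Lamb3 to Lamb1 differed between groups by 0.36 and -0.20 (two-sided exact permutation test, p = 0.6 and 0.7; 0.7 each after adjustment over 4 ratios).

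**Figure D4:**
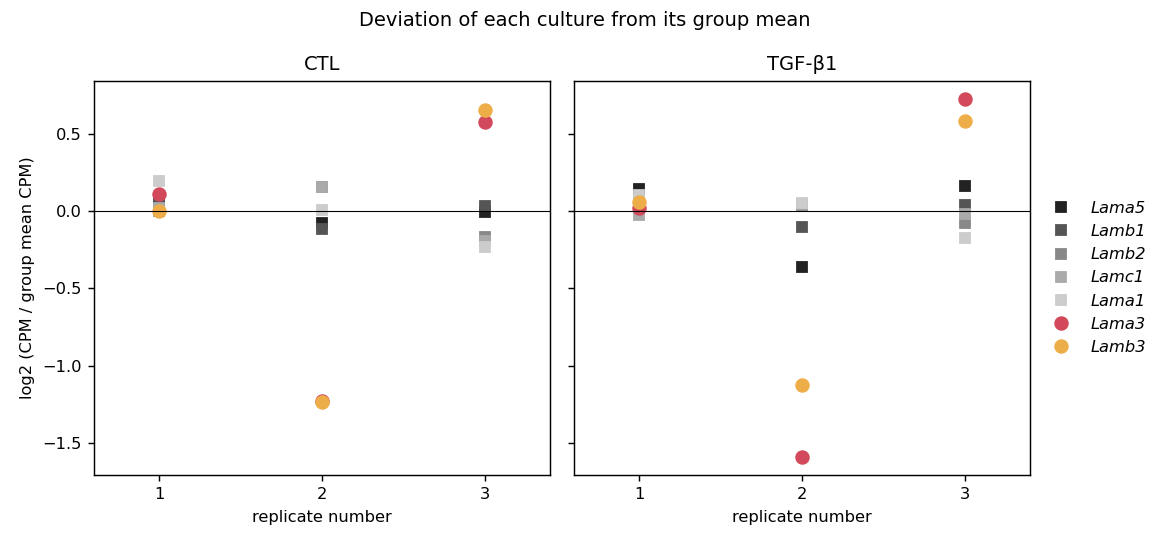
Deviation of each culture from the mean of its group, on a log2 scale (vertical axis), by replicate number, with CTL and TGF-β1 in separate panels. Lama3 and Lamb3 lie lowest in replicate 2 and highest in replicate 3 of both groups, while Lama1, Lama5, Lamb1, Lamb2 and Lamc1 lie closer to 0 in these replicates.

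Genes of other lists shared this order of cultures, replicate 3 above 1 above 2 in both groups, which 13.8% of all tested genes had. The order was noticed after the values were seen, and the following genes were named for it. Of the 9 tubule epithelium markers, 5 had it: Epcam, Cdh1, Krt8, Krt18 and Krt19, which code for epithelial adhesion molecules and simple-epithelium keratins. Of the 15 laminin receptors, 4 had it: Itga2, Itga3, Itga6 and Itgb4. The last 3 code for subunits of the α3β1 and α6β4 integrins, which bind hemidesmosome laminin. With condition alone, no gene named here for this order passed the threshold between TGF-β1 and CTL. With the replicate block, falls passed for Itga6 (log2 fold change -0.71), Krt19 (-0.48), Itga3 (-0.37), Cdh1 (-0.18) and Epcam (-0.15). Itga2 then rose (0.29), while Itgb4, Krt8 and Krt18 did not pass. The summed level of the tubule epithelium list was 2326, 1322 and 3052 CPM in CTL replicates 1, 2 and 3, and 2074, 1097 and 2497 CPM after TGF-β1. That of the fibroblast and pericyte list was 1227, 2766 and 1198 CPM in CTL and 1599, 3558 and 1195 CPM after TGF-β1. The part of these differences between cultures in the levels of Lama3 and Lamb3 was not tested.

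Laminin trimers polymerise and are then joined by nidogens, agrin and perlecan to a network of type IV collagen. In a list of 21 such basement membrane partners, 20 were tested. By the model with condition alone 5 fell and 1 rose, beside 6.69% and 5.0% of all tested genes. With the replicate block 12 fell and 4 rose, beside 19.1% and 15.1% of all tested genes. The median log2 fold change of the list was -0.47 (condition alone) against -0.0028 for all tested genes. Nid2, which codes for a nidogen linking laminin to collagen IV, fell from 14.9 ± 3.19 to 1.93 ± 0.286 CPM (SD, n = 3 each; log2 fold change -2.95, adjusted p = 0.00217, edgeR). Npnt, the integrin ligand nephronectin of kidney basement membranes, fell from 439 ± 87.7 to 152 ± 33.3 CPM (log2 fold change -1.53, adjusted p = 0.0120, edgeR). Falls were also found for the collagen IV genes Col4a6 (log2 fold change -1.07) and Col4a5 (-0.84) and for Ntn4 (-0.84), which codes for a netrin that disrupts laminin networks. The rise was that of Pxdn, the peroxidase that crosslinks collagen IV, from 613 ± 17.9 to 1189 ± 8.53 CPM (log2 fold change 0.96, adjusted p = 0.00121, edgeR). Nid1, named after its values were seen as the main nidogen partner of the γ1 chain, had a log2 fold change of -0.53 (adjusted p = 0.474, edgeR) that passed with the replicate block (-0.51, adjusted p = 0.000354, edgeR). Agrn (agrin) and Hspg2 (perlecan) were also named after their values were seen. The log2 fold change of Agrn was -0.41 (adjusted p = 0.402, edgeR), and -0.41 with the block (adjusted p = 0.000566, edgeR). Hspg2 went the other way, at 0.22 (adjusted p = 0.0663, edgeR), and 0.22 with the block (adjusted p = 0.0118, edgeR).

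Of 15 laminin receptor genes, all tested, 3 fell and 2 rose with condition alone, beside 6.69% and 5.0% of all tested genes. With the replicate block 7 fell and 5 rose, beside 19.1% and 15.1% of all tested genes. Bcam, a receptor of the α5 chain, fell from 258 ± 15.5 to 70.0 ± 16.8 CPM (SD, n = 3 each; log2 fold change -1.88, adjusted p = 0.00494, edgeR). Dag1, which codes for dystroglycan, fell from 1215 ± 318 to 498 ± 10.8 CPM (log2 fold change -1.29, adjusted p = 0.0132, edgeR), and the integrin gene Itga1 fell as well (log2 fold change -1.47, adjusted p = 0.0102, edgeR). Itgb1, the β subunit of most laminin-binding integrins, rose from 3845 ± 160.2 to 5653 ± 620.4 CPM (log2 fold change 0.56, adjusted p = 0.0228, edgeR), and Itga7, the laminin-binding integrin α subunit of muscle, rose from 8.97 ± 0.553 to 13.6 ± 0.921 CPM (log2 fold change 0.60, adjusted p = 0.0133, edgeR).
The 6 hemidesmosome genes, of which Itga6, Itgb4 and Cd151 are also in the receptor list, had 1 rise with condition alone, that of Plec, the gene of the keratin linker plectin (log2 fold change 0.35, adjusted p = 0.0325, edgeR). Of all tested genes, 5.0% rose with condition alone. With the replicate block 2 of the 6 hemidesmosome genes rose and 1 fell, beside 15.1% and 19.1% of all tested genes. Of 13 genes that build the laminin-binding glycan of dystroglycan, 12 were found by symbol and tested. B3galnt2, a glycosyltransferase gene, rose (log2 fold change 0.34, adjusted p = 0.0220, edgeR) and Pomt2, a gene of the first mannosylation step, fell (log2 fold change -0.22, adjusted p = 0.0419, edgeR). This 1 rise and 1 fall with condition alone stand beside 5.0% and 6.69% of all tested genes. With the block 1 rose and 4 fell, beside 15.1% and 19.1% of all tested genes.

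**Figure D5:**
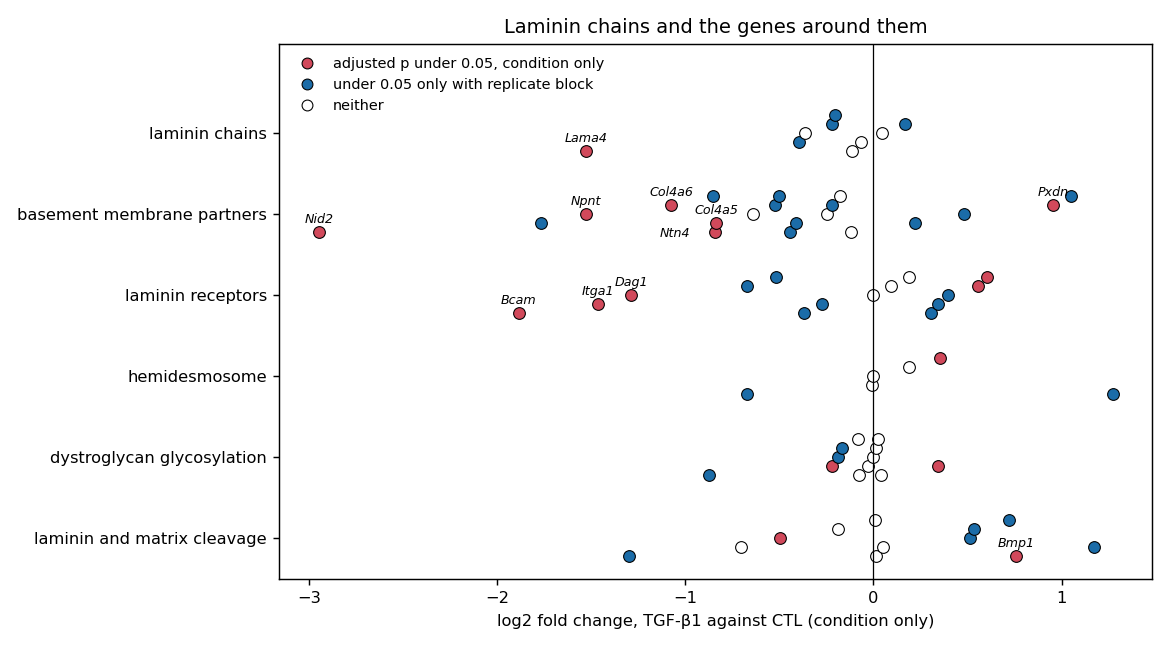
Log2 fold change with TGF-β1 against CTL (horizontal axis, model with condition alone) of each tested gene, by list; each point is 1 gene, coloured by whether its adjusted p-value is under 0.05 with condition alone, with the replicate block only, or in neither. Nid2, at -2.95, lies farthest to the left of the labelled genes, and Lama4 at -1.53 lies far from the other laminin chains.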

How the data were processed

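RNA of 3 CTL and 3 TGF-β1-treated RTEC cultures was sequenced by the authors from poly(A) mRNA as single-end reads. Per the labels and the study's methods, reads were trimmed with Trim Galore, aligned to GRCm38 with STAR 2.4.1d and assigned to genes with HTSeq 0.6.1. The strand setting and annotation release are not given in the sources used here. The deposited values are whole read counts per gene, not normalized by the authors. Totals on genes ran from 28313080 to 34183497, and rows that name no gene (25.4% to 25.9% of all listed reads) were left out. A floor of 3 counts covers counting error only.

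Symbols and exon lengths came from GENCODE M21, which matched 46005 of 46517 identifiers with version numbers dropped. Exons of other genes overlap 3.86% of the exon length of Lama2, 1.83% of Lama3 and 6.27% of Lamc3, where reads could not be told apart without strand. Counts were filtered with filterByExpr, scaled by TMM and tested in R 4.3.3 with edgeR 4.0.16 (glmQLFit, robust, and glmQLFTest, two-sided), with standard errors from the F statistic and condition as the model term. Across genes, deviations from the group means correlated by 0.340, 0.684 and 0.572 for replicates 1, 2 and 3, and by -0.617 to 0.215 for unequal numbers. Deviations from the mean of 3 cultures constrain each other, so these correlations are not independent. Replicate 1 stood out least, at 0.340 against 0.215 for CTL replicate 1 with TGF-β1 replicate 3. The labels' numbers were taken to pair the cultures, a choice made from the same data. The blocked fit is given for the chains whose call it changes and, outside the chains, for some of the named genes. Exact permutation tests used scipy 1.17.1. Alternatives were the replicate block, DESeq2 1.42.0, limma-voom (limma 3.58.1), other scalings and filters, the longest annotated transcript as gene length, and leaving out cultures. Members and gene lists were chosen with earlier results of these data known. Outside the chains, list genes were named if past 0.05 with a mean of at least 5 CPM, at most 4 per list and direction. Col4a5, Nid1, Agrn, Hspg2, Synpo, Slc34a1, Aqp2 and the genes named for an order of cultures, outside that rule, were added after their values were seen. Csf1r, under the level of that rule, was named as well. Some results are not reported here.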

Additional observations from a re-analysis of the deposited data

How the results depend on the processing

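With the replicate block the log2 fold changes of Lama5 (-0.41), Lamb1 (0.17), Lamb2 (-0.20) and Lamc1 (-0.21) passed the threshold, and that of Lama3 turned to -0.035. Lama3 was also below 0 with library size only (-0.019) and limma-voom (-0.039). With the block and without both replicate 2 cultures, Lama5 (-0.28), Lamb1 (0.16) and Lamb2 (-0.14) passed. The chains called higher and lower were then 1 and 3, with the block alone 1 and 4, and 0 and 1 with DESeq2, limma-voom and the other scalings and filters. Of all genes, 793 and 1061 were higher and lower with condition alone, 2388 and 3037 with the block, 2288 and 2718 with the block and without replicate 2, 1201 and 1521 with DESeq2 and 508 and 1467 with library size only. Of the pathway genes outside the chains, the counts were 6 and 10, then 17 and 25, 17 and 24 and, with DESeq2, 10 and 14. Scaling by library size only moved the median of all genes by under 0.1 on the log2 scale. Lama2 had under 10 reads in 1 library and no value under the filter of 10 counts in every sample. With the longest annotated transcript as length, the mean log2 ratio in CTL moved from -8.12 to -7.13 for Lama4 to Lama5 and from 2.35 to 3.02 for Lamb1 to Lamb2 (3.06 with no length), while differences between groups in a ratio do not involve length.

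Leaving out 1 culture, or both cultures of a number, with no block (9 fits), gave 0 higher and 0 to 2 lower chains, 0 to 1084 higher and 0 to 1290 lower genes, and 0 to 12 higher and 0 to 11 lower pathway genes, with 0 of all genes called by edgeR without replicate 1 (1938 at an unadjusted p-value under 0.05). The log2 fold change ran over -0.22 to -0.0095 for Lama1, -0.68 to -0.11 for Lama2, -0.53 to 0.46 for Lama3, -1.78 to -1.19 for Lama4, -0.48 to -0.25 for Lama5, 0.11 to 0.21 for Lamb1, -0.28 to -0.12 for Lamb2, -0.48 to 0.42 for Lamb3 and -0.31 to -0.14 for Lamc1. Over 7 such settings, the difference in log2 ratio was -0.13 to 0.84 for Lama3 to Lama5, -1.42 to -0.94 for Lama4 to Lama5, 0.23 to 0.47 for Lamb1 to Lamb2 and -0.67 to 0.23 for Lamb3 to Lamb1. The causes were not tested.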

Other observations

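Genes that cleave laminin and other matrix proteins, or hold back such cleavage, formed a further list of 15, of which 12 were tested. With condition alone 1 rose and 1 fell, beside 5.0% and 6.69% of all tested genes. With the replicate block 5 rose and 2 fell, beside 15.1% and 19.1% of all tested genes. Bmp1, a proteinase that trims hemidesmosome laminin, rose from 501 ± 43.4 to 847 ± 85.7 CPM (SD, n = 3 each; log2 fold change 0.76, adjusted p = 0.0103, edgeR). Plat, the tissue plasminogen activator, fell from 255 ± 15.8 to 181 ± 29.4 CPM (log2 fold change -0.50, adjusted p = 0.0487, edgeR). Plg and Mmp3 had at most 3 reads in each library.

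Of 7 genes often raised by TGF-β1, 5 rose and 0 fell (edgeR, condition alone), beside 5.0% and 6.69% of all tested genes. Among the 5 were Fn1 (fibronectin, log2 fold change 1.04) and the feedback inhibitors Pmepa1 (0.87) and Skil (0.76). The log2 fold changes of the laminin chains other than Lama4 lay between -0.40 and 0.17. Of the marker lists, with condition alone, Cdh16 and Pax8 fell among 9 tubule epithelium genes, all tested (log2 fold change -1.50 and -0.77). Lrp2 and Aqp1 fell among 6 tested of 9 proximal tubule genes (-0.93 and -2.91). Hsd11b2 rose among 2 tested of 8 collecting duct genes (1.65), and Des fell among 10 tested of 12 fibroblast and pericyte genes (-1.17). Csf1r, at a low mean of 2.85 CPM, fell among 6 tested of 8 leukocyte genes (-1.32). With the replicate block, 1 rose and 1 fell of 2 tested collecting duct genes, and 3 rose and 3 fell of 10 tested fibroblast and pericyte genes. Falls with the block were 7 of 9 for tubule epithelium, 4 of 6 tested for proximal tubule and 1 of 6 tested for leukocyte genes, with 0 rises. They were 5 of 5 tested for podocyte and parietal cell, 1 of 2 tested for loop and distal tubule and 0 of 5 tested for endothelial genes, also with 0 rises. Of all tested genes, 15.1% rose and 19.1% fell with the block. The part of these marker genes in the chain levels was not tested.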
